A study of Mus musculus with 6 samples.

Results

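The circadian clock and its direct outputs were examined in mouse liver through 10 genes: Clock, Npas2, Per1, Per2, Per3, Cry1, Nr1d1, Dbp, Tef and Bhlhe40. A gene was read by the probe set whose one annotated symbol was that gene, and where there were several such sets by the brightest one. This rule found 9 of the 10 genes among 22180 genes in all. Per2 was read only by a probe set that the annotation also gives to another gene, so no value is given for it. Tef had 2 probe sets, of which the brighter was used.

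The livers came from male mice of 2 substrains of one albino inbred line, Balb/c and Balb/cBy, with 3 arrays of each, which the labels call biological replicates. Balb/cBy mice are known to carry a deletion in the fatty acid oxidation gene Acads, and Balb/c served as the comparison. All 6 mice ate a diet with 58% fat by energy for 12 weeks from 8 weeks of age and were 20 weeks old when sampled, so both groups share the diet and no other diet was analysed here. They lived in individual cages at 23 degrees with 12 hours of light and 12 of darkness. The labels used here give no hour at which livers were taken, nor the supplier of the mice. The question asked of these genes is whether the livers were in the same phase of the day, within each substrain and between them.

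The clock of mammalian cells is a loop of transcription. CLOCK or its relative NPAS2 pairs with BMAL1 (gene symbol Arntl in the annotation), binds E-box elements and switches on the Per and Cry genes, whose proteins return to the nucleus and repress that pair. A second loop runs through REV-ERB-alpha, the product of Nr1d1, which represses Arntl, Npas2, Clock and Cry1. The proteins of Dbp and Tef carry the rhythm to output genes through D-box elements, and BHLHE40 (DEC1) represses at E-boxes. In the liver of mice kept in light and darkness, Arntl, Npas2 and Clock are known to be highest around the end of the night and light onset, and Cry1 late in the night. These are called morning genes here. Nr1d1, Dbp, Tef, the Per genes and Bhlhe40 are known to be highest between midday and the early night and are called evening genes. Feeding time also sets the phase of the liver clock, and high-fat feeding is known to flatten the daily feeding rhythm.

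Promoter sequences are shown because the clock proteins named above act through E-box and D-box elements. RefSeq's promoter table (build GRCm38.p6) held 8 of the 10 genes with 12 start sites between them, and Per2 and Bhlhe40 were not in it. The 250 bases before each start were searched on both strands for the E-box CACGTG, the related E-prime box CACGTT, the D-box TTATGTAA, the ROR and REV-ERB element TAGGTCA and the cyclic AMP element TGACGTCA. Among 32851 promoters of this length, 6.02% held the E-box, 3.85% the E-prime box, 0.819% the D-box, 2.23% the ROR and REV-ERB element and 1.55% the cyclic AMP element. The E-box was found before 3 of the 8 genes, Cry1, Per1 and Tef, the last at both of its starts. Counted by start sites, as the shares above are, it stood before 4 of 12. Any of these elements stood before 6 of the 12, both starts of Tef among them. The share of all promoters with any of the elements was not counted. The stretches for Per1, Nr1d1, Dbp and Npas2 stand for the 4 kinds of gene (repressor, second loop, output, activator), and those of Cry1 and Per3 were added for their matches. All run 5′ to 3′ on the strand of the gene, and capitals mark the matches.
Per1, first of 2 starts, chr11:69098699-69098948, plus strand: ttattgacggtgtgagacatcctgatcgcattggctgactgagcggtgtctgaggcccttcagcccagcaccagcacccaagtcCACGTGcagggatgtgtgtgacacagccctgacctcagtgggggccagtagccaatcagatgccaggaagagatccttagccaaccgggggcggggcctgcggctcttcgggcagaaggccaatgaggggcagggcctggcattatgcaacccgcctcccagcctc
Cry1, chr10:85185055-85185304, minus strand: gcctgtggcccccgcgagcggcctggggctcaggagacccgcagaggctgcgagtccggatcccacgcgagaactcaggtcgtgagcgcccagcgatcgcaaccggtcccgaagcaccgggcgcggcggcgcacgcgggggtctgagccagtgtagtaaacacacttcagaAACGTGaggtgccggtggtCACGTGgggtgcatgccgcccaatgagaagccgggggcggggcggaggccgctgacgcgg
Per3, chr4:151044666-151044915, minus strand: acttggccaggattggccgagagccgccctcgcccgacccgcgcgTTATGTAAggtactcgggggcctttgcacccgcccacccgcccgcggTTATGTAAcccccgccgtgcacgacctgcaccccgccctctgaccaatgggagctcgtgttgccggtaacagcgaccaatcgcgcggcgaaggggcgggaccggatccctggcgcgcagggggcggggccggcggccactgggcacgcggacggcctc
Nr1d1, chr11:98775378-98775627, minus strand: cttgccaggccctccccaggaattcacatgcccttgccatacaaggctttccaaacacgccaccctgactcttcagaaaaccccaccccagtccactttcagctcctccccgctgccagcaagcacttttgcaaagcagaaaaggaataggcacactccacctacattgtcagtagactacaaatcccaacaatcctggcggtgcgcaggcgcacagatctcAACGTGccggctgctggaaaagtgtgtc
Dbp, chr7:45704997-45705246, plus strand: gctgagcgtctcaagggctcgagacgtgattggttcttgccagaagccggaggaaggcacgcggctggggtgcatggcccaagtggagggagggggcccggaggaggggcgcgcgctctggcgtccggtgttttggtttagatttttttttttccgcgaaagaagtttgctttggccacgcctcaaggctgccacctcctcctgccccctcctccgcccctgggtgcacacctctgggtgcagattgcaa
Npas2, chr1:39194022-39194271, plus strand: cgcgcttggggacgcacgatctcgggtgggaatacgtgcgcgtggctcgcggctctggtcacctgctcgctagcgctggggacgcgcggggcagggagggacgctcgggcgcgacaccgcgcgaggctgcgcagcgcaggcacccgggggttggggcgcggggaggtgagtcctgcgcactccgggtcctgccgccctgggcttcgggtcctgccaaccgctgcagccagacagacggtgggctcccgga

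Counted from the start site, the E-box lay at -166 to -161 in Per1 and at -60 to -55 in Cry1. Cry1 also held an E-prime box on the other strand at -79 to -74, and Nr1d1 one at -28 to -23. Per3 held the D-box at 2 places, -205 to -198 and -158 to -151. None of these letters stood in the windows of Dbp, Npas2 or Clock. A match is a stretch of letters and no measure of binding. Sequence outside these windows was not searched, so a window without a match does not mean that the gene lacks the element.

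The array values are log2 values made with RMA, a method that corrects background, brings the arrays to one distribution and summarises the probes of a set. A difference of 1 on this scale is a doubling, and levels are compared between mice for one gene, not between genes. In liver tissue, fewer cells of a type and less RNA per cell cannot be told apart. Most of the 9 clock genes differed widely between mice of one substrain and less between the substrain means. For 7 of them the range within either substrain was larger than the difference of the substrain means, the others being Per1 and Bhlhe40. The share of all genes that meet this was not counted, so it is not read as a trait of the clock genes. Of 9, 0 differed between substrains at an adjusted p of 0.05 with limma, a test that pools the spread over all genes, as did 0% of the 22180 genes. The smallest adjusted p over the 9 was 0.999. Their median difference (Balb/cBy minus Balb/c) was 0.05 on the log2 scale, with 5 genes higher and 4 lower, beside a median of -0.003 over all genes. Without Balb/c replicate 2 that median was -0.21. The list mixes 3 morning and 6 evening genes, which a shift of phase would move in opposite directions. Its median and its split of directions therefore say little of such a shift.

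Among the activators, Clock encodes the DNA-binding partner of BMAL1. Its log2 values were 8.77, 8.97 and 9.80 in Balb/c replicates 1, 2 and 3 and 9.73, 8.59 and 8.72 in the Balb/cBy ones. A single mouse of each substrain stood well above the other mice. The substrain difference was -0.17 (SE 0.35, 95% interval -0.96 to 0.63), smaller than the range within either substrain, 1.03 and 1.15.
Npas2, which can stand in for CLOCK, was at 8.03, 8.14 and 8.17 in Balb/c and at 8.59, 8.09 and 8.06 in Balb/cBy. The highest of the 6 was Balb/cBy replicate 1, and the others lay close together. The difference was 0.13 (SE 0.15, 95% interval -0.21 to 0.48).

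The repressors of the first loop did not separate the substrains either. Per1, the period gene that answers fastest to light and hormone signals, was at 9.79, 9.49 and 9.74 in Balb/c and at 9.10, 10.44 and 10.46 in Balb/cBy. The Balb/cBy mice held both the lowest and the highest values, a range of 1.36 or 2.56-fold, while the Balb/c mice lay within 0.30. The difference was 0.33 (SE 0.33, 95% interval -0.43 to 1.09), and 0.78 without Balb/cBy replicate 1 (limma adjusted p = 0.232). It fell to 0.11 when Balb/cBy replicate 2 was left out and to 0.10 when replicate 3 was.
Per3, a period gene that is dispensable for the core rhythm, was at 9.02, 8.71 and 9.20 in Balb/c and at 8.42, 9.43 and 9.24 in Balb/cBy. Again Balb/cBy replicate 1 was lowest and the other mice of that substrain were the highest of all. Its difference was 0.05 (SE 0.25, 95% interval -0.53 to 0.63).
Cry1, the cryptochrome that closes the loop late at night, was at 8.89, 9.05 and 8.27 in Balb/c and at 8.91, 8.56 and 8.43 in Balb/cBy. The groups overlapped, with Balb/c replicate 3 lowest. The difference was -0.10 (SE 0.21, 95% interval -0.59 to 0.38).

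Nr1d1, the repressor of the second loop, was at 9.38, 9.17 and 10.72 in Balb/c and at 9.28, 9.98 and 10.23 in Balb/cBy. Balb/c replicate 3 stood at the top and Balb/c replicate 2 at the bottom, a range of 1.55 or 2.94-fold inside one substrain. The difference was 0.08 (SE 0.40, 95% interval -0.85 to 1.0).
Dbp, an output factor and among the strongest cycling transcripts of liver, was at 9.24, 8.88 and 10.45 in Balb/c and at 8.62, 10.18 and 9.94 in Balb/cBy. Its 6 values spanned 1.83, or 3.55-fold, and each substrain covered most of that span, 1.58 in Balb/c and 1.56 in Balb/cBy. The means were 9.52 ± 0.825 and 9.58 ± 0.838 (SD, n = 3 each), a difference of 0.06 (SE 0.48, 95% interval -1.05 to 1.16).
Tef, the related output factor, was at 8.77, 8.60 and 8.89 in Balb/c and at 8.09, 8.79 and 8.96 in Balb/cBy. The lowest liver was Balb/cBy replicate 1, and the other mice lay together. The difference was -0.14 (SE 0.21, 95% interval -0.62 to 0.35).

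Bhlhe40 was the exception. It was at 10.81, 10.77 and 11.12 in Balb/c and at 10.50, 10.60 and 10.65 in Balb/cBy, and it was the 1 gene of the 9 whose substrains did not overlap. Its means were 10.9 ± 0.19 and 10.6 ± 0.0768 (SD, n = 3 each), a difference of -0.31 (SE 0.12, 95% interval -0.58 to -0.05) or 0.805-fold. It did not pass limma's adjusted threshold (unadjusted p = 0.0272, adjusted p = 0.999), and the exact two-sided permutation test gave p = 0.1, the smallest that 3 mice against 3 allow. The difference was -0.20 without Balb/c replicate 3.
Over all genes, 1.16% were lower in Balb/cBy at an unadjusted p of 0.05 and 2.59% higher, where the clock genes gave 1 and 0 of 9. Groups lay apart with Balb/cBy lower for 3.51% of all genes and with Balb/cBy higher for 4.32%, where the clock genes again gave 1 and 0. One gene in 9 is too few to set against those shares.

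**Figure D1:**
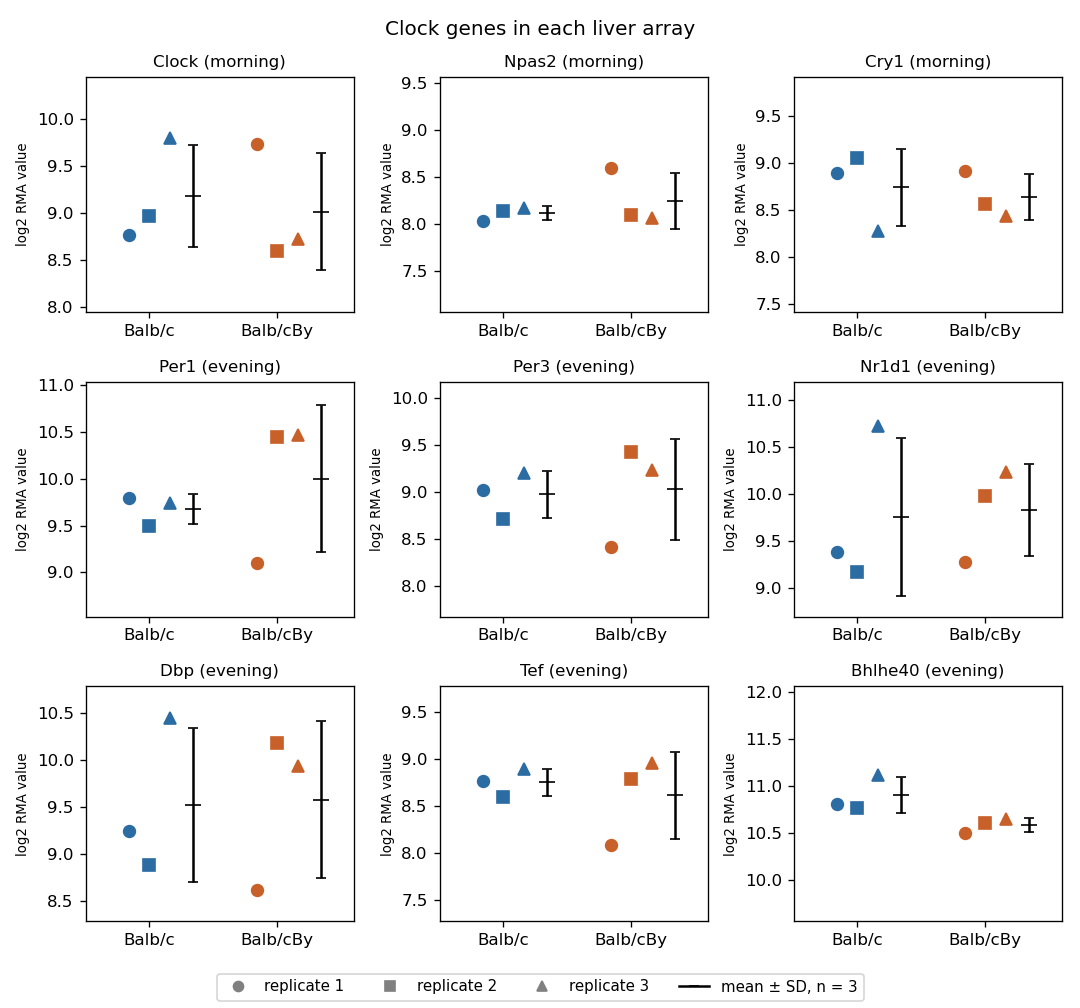
Log2 RMA values (vertical axes, each spanning the same number of log2 units) of 9 clock genes in 3 Balb/c (blue) and 3 Balb/cBy (orange) livers; the marker shape gives the replicate and the black bar the mean ± SD. Balb/cBy replicate 1 (orange circle) is the lowest of the 6 in 5 of 6 evening genes, and the substrains lie apart for Bhlhe40, from 10.50 to 10.65 against 10.77 to 11.12.

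**Figure D2:**
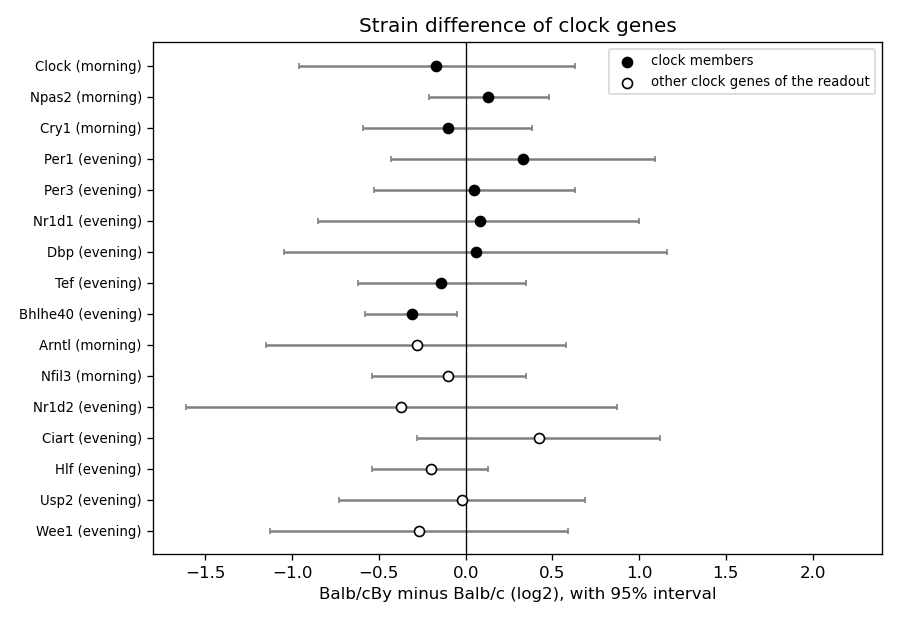
Difference of Balb/cBy minus Balb/c on the log2 scale (horizontal axis, point) with its 95% interval from limma (bar) for 9 clock genes (filled) and 7 other clock genes (open). Among the genes shown, the interval of Bhlhe40, from -0.58 to -0.05, is the one that does not cross 0.

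The intervals say how far these mice can speak of a substrain difference. For Dbp and Nr1d1 nearly a doubling in either direction lies within the interval, so a moderate difference was not detectable with 3 mice a group. For Npas2 the interval ends at -0.21 and 0.48.

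The spread between mice of one substrain was wide for most of the 9 genes. The residual SD (the SD between mice of a substrain, from the same fit) was 0.83 for Dbp, 0.69 for Nr1d1, 0.59 for Clock and 0.56 for Per1. These 4 lay above the 99th percentile of all 22180 genes. Per3 had 0.42, Cry1 and Tef 0.34 each, and Npas2 0.22, while Bhlhe40 with 0.14 lay at percentile 51.5. In all, 7 of the 9 genes were in the top 10% of genes by this measure. The median was 0.42 for the 9 genes, 0.14 for all genes and 0.15 for the 11396 genes with a mean of at least 8. A wide spread was not particular to these genes. Of the lists read below, 14 of 17 rhythmic liver output genes and 10 of 14 feeding and glucocorticoid genes were in that top 10%. So were 10 of 21 other clock genes, 4 of 9 body temperature genes, 4 of 5 macrophage and Kupffer cell markers and 1 of 6 hepatocyte markers. That hepatocyte marker is Tat, which is also in the feeding and glucocorticoid list. The median was 0.44 for the output genes and 0.42 for the macrophage and Kupffer cell markers. For 8 of the 9 genes the SE was larger than the size of the difference between the substrains, Bhlhe40 being the other. How many of all genes do the same was not counted, so this too is not read as particular to them.

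**Figure D3:**
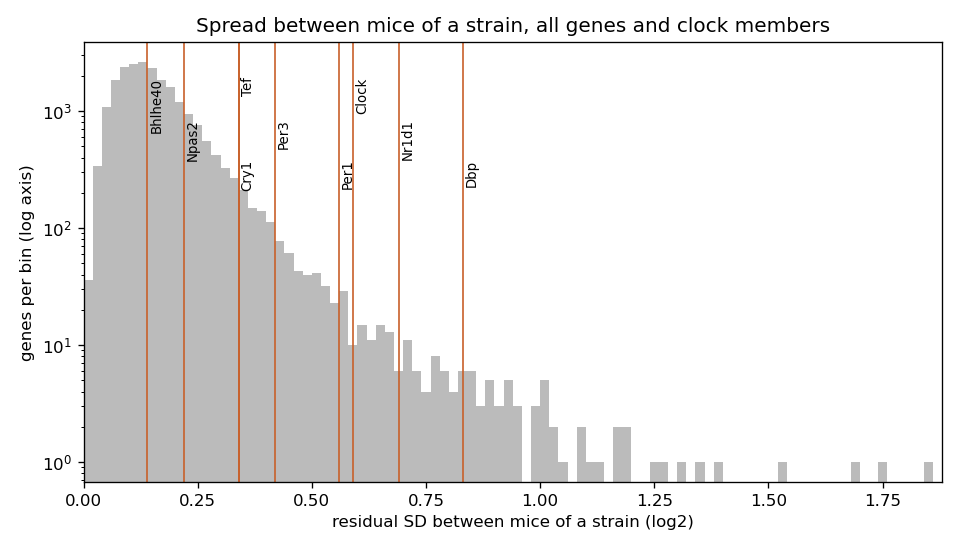
Number of genes (vertical axis, log scale) by residual SD between mice of a substrain (horizontal axis, log2 units) for 22180 genes in grey, with the 9 clock genes as orange lines. Dbp at 0.83, Nr1d1 at 0.69, Clock at 0.59 and Per1 at 0.56 lie in the far tail, Bhlhe40 at 0.14 near the middle.

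A phase readout was made for each array to show how these deviations line up. Each gene was centred on its mean over the 6 arrays, and the mean of the 6 evening genes was subtracted from that of the 3 morning genes. A high value therefore means high Clock, Npas2 and Cry1 with low Per1, Per3, Nr1d1, Dbp, Tef and Bhlhe40. It is a description of these arrays with no test, and with one value per mouse it gives no hour of the day.

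The readout was 0.01, 0.40 and -0.33 in Balb/c replicates 1, 2 and 3 and 1.02, -0.54 and -0.56 in Balb/cBy replicates 1, 2 and 3. Balb/cBy replicate 1 was the most morning-like liver by this measure, and the other Balb/cBy mice the most evening-like. The Balb/c mice lay between them. The substrain means were 0.03 ± 0.36 and -0.03 ± 0.91 (SD, n = 3 each), which differ by -0.06, against a range of 1.59 within Balb/cBy and 0.73 within Balb/c. Without Balb/cBy replicate 1 the difference was -0.58, while leaving out Balb/cBy replicate 2 or 3 gave 0.20 or 0.21. Leaving out Balb/c replicate 2 gave 0.13, and leaving out Balb/c replicate 3 gave -0.23.

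Morning and evening genes deviated in opposite directions in Balb/cBy replicate 1. Its morning genes were 0.42 above their mean and its evening genes 0.60 below (a deviation of -0.60). It was the lowest of the 6 arrays in 5 of 6 evening genes, Nr1d1 being the other, where Balb/c replicate 2 was lower. Balb/cBy replicates 2 and 3 had morning genes at -0.24 and -0.25 and evening genes at 0.30 and 0.31.
Balb/c replicate 3 was of another kind. Its evening genes were the highest of all at 0.42, led by Nr1d1, Dbp and Bhlhe40, in which it was the top array of 6. Its morning genes stood at 0.09, because Clock was at its highest there while Cry1 was at its lowest. When Clock was left out, its readout was -0.63, the lowest of the 6.

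The rest of the oscillator was read from 24 further clock genes, of which 21 were measured. Of these 0 passed the adjusted threshold, and 10 were higher and 11 lower in Balb/cBy. The median difference was -0.01, or 0.13 when Balb/cBy replicate 1 was left out. This list too joins morning and evening genes, so its median says little of phase. The smallest unadjusted p of the list belonged to Fbxw11, a ubiquitin ligase subunit that helps degrade PER proteins, at 0.20 (SE 0.12) and at 0.12 with Balb/cBy replicate 2 left out, and the next to Hlf at -0.20 (SE 0.15). A second readout used 7 of them that are not among the 9 genes, Arntl and Nfil3 as morning genes and Nr1d2, Ciart, Hlf, Usp2 and Wee1 as evening genes. It read the same arrays, so it shares every liver with the first.

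The second readout was 0.13, 0.86 and -0.84 in Balb/c replicates 1, 2 and 3 and 1.20, -0.68 and -0.67 in the Balb/cBy ones. Balb/cBy replicate 1 was again highest, followed by Balb/c replicates 2 and 1, and Balb/c replicate 3 was lowest, next to Balb/cBy replicates 2 and 3. The substrain means were 0.05 ± 0.86 and -0.05 ± 1.09 (SD, n = 3 each), a difference of -0.10. Leaving out Balb/cBy replicate 1 gave -0.73 and leaving out Balb/c replicate 3 gave -0.55. The value was 0.31 when Balb/c replicate 2 was left out, and 0.21 for Balb/cBy replicate 2 or 3.

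Arntl, which encodes BMAL1, was at 8.58, 8.86 and 7.92 in Balb/c and at 9.04, 7.56 and 7.91 in Balb/cBy, a difference of -0.28 (SE 0.38). It was highest in Balb/cBy replicate 1 and lowest in Balb/cBy replicate 2. In Balb/c replicate 3 it was at 7.92, close to the value in Balb/cBy replicate 3, while its partner Clock was at its highest there, 9.80. Nr1d2, the second REV-ERB gene, was at 9.52, 9.12 and 10.57 in Balb/c and at 8.11, 9.94 and 10.04 in Balb/cBy, a difference of -0.37 (SE 0.54). Its lowest value, in Balb/cBy replicate 1, was in the array where Arntl was highest.
Ciart, a repressor of CLOCK and BMAL1, was at 8.50, 8.30 and 9.13 against 8.42, 9.20 and 9.57 in Balb/cBy, a difference of 0.42 (SE 0.30). Wee1, a cell cycle kinase gene driven through E-boxes, was at 9.03, 8.16 and 9.14 against 7.67, 8.99 and 8.85, a difference of -0.27 (SE 0.37). The remaining genes of this readout were the D-box repressor Nfil3 with a difference of -0.10 (SE 0.19) and the ubiquitin protease gene Usp2 with -0.02 (SE 0.31). All 7 had overlapping substrains.

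**Figure D4:**
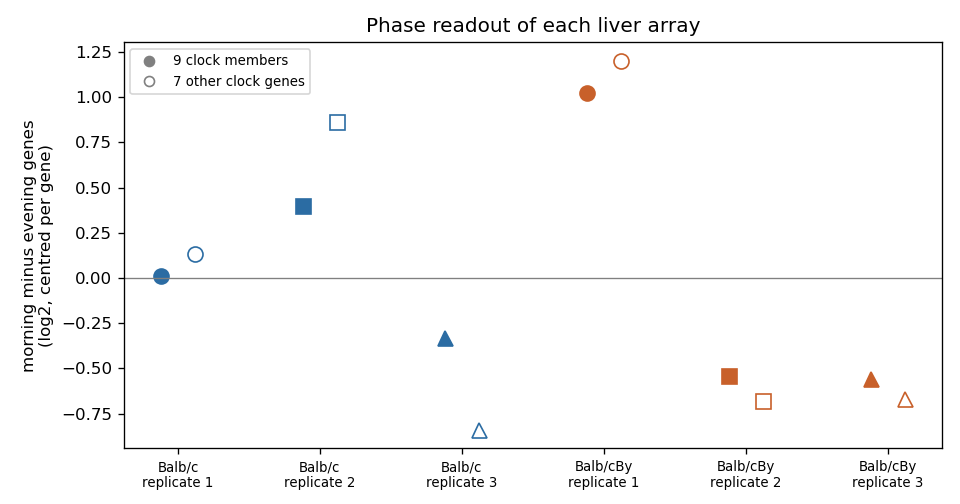
Phase readout of each array (vertical axis, mean of centred morning genes minus mean of centred evening genes, log2 units) for 3 Balb/c (blue) and 3 Balb/cBy (orange) livers; filled markers use 9 clock genes, open markers 7 other clock genes. Balb/cBy replicate 1 is highest in both, at 1.02 and 1.20, while Balb/cBy replicates 2 and 3 lie between -0.54 and -0.68.

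The strain comparison was repeated with the second readout as a covariate, an alternative chosen after the data were seen. The residual SD of Dbp was then 0.20 in place of 0.83, that of Nr1d1 0.36 in place of 0.69, that of Per3 0.14 in place of 0.42 and that of Per1 0.33 in place of 0.56. Clock kept 0.66 against 0.59. The covariate was made from genes of the same oscillator on the same arrays. Lower values for genes that move with those genes therefore follow from how it was made. The change over all genes was not computed, and the source of the spread was not tested. The substrain difference was -0.03 (SE 0.13) for Dbp and -0.33 (SE 0.10) for Bhlhe40, and 0 of the 9 genes and 0 of 22180 passed limma's adjusted threshold. In that fit 1031 genes had an unadjusted p under 0.05, and 833 without the covariate. The hour of sampling and the phase of the mice cannot be told apart here, since no label gives the hour.

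Genes that follow the clock or the daily round of feeding, hormones and body temperature were read from 3 further lists. Of 20 rhythmic liver output genes 17 were measured, 0 passed, 10 were higher and 7 lower, and the median difference was 0.05. It lay between 0.10 and 0.16 when each array was left out in turn, and was -0.01 with a repeated quantile normalization. Genes of this list also ran in opposite directions over the arrays (Upp2 and Elovl3 below), so its median is no measure of phase. Cyp7a1, the rate-limiting enzyme of bile acid synthesis and a known target of DBP, was at 11.20, 9.78 and 10.20 in Balb/c and at 11.01, 12.23 and 11.66 in Balb/cBy. The groups overlapped through Balb/c replicate 1 and Balb/cBy replicate 1, and the difference was 1.24 (SE 0.39, unadjusted p = 0.0127, adjusted p = 0.999 in limma). The metallothionein Mt2 differed by 0.57 (SE 0.26), or by 0.35 when Balb/c replicate 3 was left out.
Of 15 genes that follow feeding or glucocorticoids 14 were measured, 0 passed, 8 were higher and 6 lower, and the median was 0.05. Leaving out Balb/c replicate 3 turned it to -0.09, and leaving out Balb/cBy replicate 1 gave 0.11. Tob1, an antiproliferative factor, differed by -0.51 (SE 0.21), with Balb/cBy replicate 1 far below the rest, and by -0.24 without that mouse. The fasting hormone gene Fgf21 differed by -0.21 (SE 0.10). Of the 14 genes 2, Tob1 and Fgf21, had substrains that lay apart with Balb/cBy lower, beside 3.51% of all genes. These are too few to set against that share.
Of 10 genes that follow body temperature 9 were measured, 0 passed, 6 were higher and 3 lower, and the median was 0.32. The mean deviation of the list was 0.03, -0.11 and -0.34 in Balb/c and -0.42, 0.56 and 0.28 in Balb/cBy. By that mean Balb/cBy replicate 1 was lowest and the other Balb/cBy mice highest, an order that the 2 lists before it did not show. The mean joins genes of unequal spread and direction, with heat shock genes beside the cold-induced Cirbp. The heat shock gene Hspa1b was at 10.57, 10.13 and 9.05 in Balb/c and at 8.44, 12.14 and 11.64 in Balb/cBy. Hsp90aa1 ran otherwise and was highest in Balb/cBy replicate 1, at 9.84. Leaving out Balb/c replicate 2 gave a median of 0.20, and leaving out Balb/cBy replicates 2 and 3 in turn gave 0.10 and 0.14. Cirbp, an RNA-binding protein gene induced by cold, was at 7.86, 7.86 and 7.85 against 7.71, 7.54 and 7.59, a difference of -0.25 (SE 0.09, unadjusted p = 0.0255, adjusted p = 0.999 in limma). The cochaperone gene Stip1 differed by 0.32 (SE 0.14), or by 0.20 when Balb/c replicate 2 was left out.

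The arrays showed liver as labelled, with hepatocyte markers such as Alb and Ttr at a mean of 13.6 to 13.7 in Balb/c and 13.6 to 13.8 in Balb/cBy over 6 genes. For markers of other liver and blood cells, 0 passed the adjusted threshold. Over the 5 macrophage and Kupffer cell markers the mean deviation was 0.11, 0.50 and -0.48 in Balb/c and -0.38, 0.02 and 0.22 in Balb/cBy. Balb/c replicate 3 was lowest and Balb/cBy replicate 1 next. Mean levels of these markers ran from 9.27 to 10.3 in Balb/c and from 9.37 to 9.97 in Balb/cBy. Endothelial markers ran from 9.35 to 9.46 and from 9.21 to 9.70, stellate cell markers from 9.31 to 9.72 and from 9.68 to 9.92, and adipocyte markers from 7.60 to 7.74 and from 7.49 to 7.99. For neutrophil markers the ranges were 6.68 to 6.96 and 7.02 to 7.21, and for lymphocyte markers 7.16 to 7.27 and 7.03 to 7.08. The substrains did not overlap in the mean of either list, and both lists lay below the array medians. By single genes, 2 of 4 neutrophil markers and 2 of 4 stellate cell markers lay apart with Balb/cBy higher. With Balb/cBy lower, 2 of 4 lymphocyte markers and 1 of 4 endothelial markers lay apart. Over all genes those shares were 4.32% and 3.51%. Of 4 neutrophil markers 3 were higher in Balb/cBy, 2 of them at an unadjusted p under 0.05 in limma, with a median difference of 0.29. The 4 stellate cell markers were all higher in Balb/cBy, 2 of them at an unadjusted p under 0.05, with a median of 0.35. The 4 lymphocyte markers were all lower, 1 of them at an unadjusted p under 0.05, with a median of -0.15. Over all genes, 2.59% were higher and 1.16% lower at that p. With 4 genes a list there are too few to set against these shares. Cholangiocyte markers stood at 7.86 in each Balb/c array and at 7.74 to 7.96 in Balb/cBy, and of 3 erythroid markers 0 were measured. Their part in the clock gene values was not tested. Array medians lay between 7.66 and 7.74.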

How the data were processed

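The deposited table holds log2 values for 41345 probe sets on 6 arrays, made by the authors with RMA per the submitters' processing notes. For the RMA version, the array annotation and the build, no statement is given in the sources used here. That the scale is log2 follows from the range of the values. Total RNA was extracted with Trizol, and 500 ng of it was labelled, per the labels' protocols.

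Platform annotation gave 1 symbol to 23521 probe sets, several to 1814 and none to 16010. Of the first, 23328 were found in the RefSeq gene table by identifier. Of several probe sets of a gene the one with the highest mean was kept, giving 22180 genes. Low values were not filtered.

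Balb/cBy minus Balb/c was fitted over all genes with limma 3.58.1 in R 4.3.3 (lmFit, eBayes, Benjamini-Hochberg, threshold 0.05), without covariates. Intervals are 95% intervals of the moderated fit. Scripts were tested on simulated data. Depth has no counterpart on arrays, and their number, 3 a substrain, limits the precision.

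The members, gene lists and tests were chosen with earlier results of these data known. Named were the 9 genes, the 7 genes of the second readout and the 2 genes with the smallest p of each further list. Output genes in the closing section, and Hspa1b and Hsp90aa1, were named after their values were seen. Alternatives were other array scalings, the replicate number as a block, all probe sets averaged, filters at a mean of 6 and 8, other variance models, array weights, leaving out each array or gene, and a readout covariate.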

Additional observations from a re-analysis of the deposited data

How the results depend on the processing

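In each alternative 0 of the 9 clock genes passed limma's adjusted threshold, with the replicate block (the replicate number of the labels as a block) and with array weights too. Same-numbered arrays did not deviate together: the correlations of their deviations from the substrain means were -0.323, -0.201 and -0.228. With the block, the count of genes past the threshold was 0 of 22180, 511 had an unadjusted p under 0.05 against 833 without it, and the difference of Bhlhe40 was -0.31 as before. Array weights gave 12 calls over all genes, and leaving out Balb/c replicate 3 or Balb/cBy replicate 1 gave 2 and 3. With array weights the difference went from 0.08 to 0.49 for Nr1d1, from 0.06 to 0.45 for Dbp, from 0.33 to 0.58 for Per1, from 0.05 to 0.20 for Per3, from 0.13 to 0.05 for Npas2 and from -0.10 to -0.30 for Cry1. Signs of small differences turned. With a repeated quantile normalization Per3 and Dbp were both at -0.02, with array weights Tef was at 0.07, and with the readout covariate Dbp was at -0.03. Leaving out each array in turn gave ranges of -0.53 to 0.14 for Clock, -0.04 to 0.23 for Npas2, -0.34 to 0.06 for Cry1, -0.15 to 0.36 for Per3, -0.22 to 0.56 for Nr1d1, -0.27 to 0.54 for Dbp and -0.31 to 0.12 for Tef. Among the other clock genes the ranges were -0.72 to 0.02 for Arntl, -0.32 to 0.09 for Nfil3, -0.71 to 0.26 for Nr1d2, -0.27 to 0.37 for Usp2 and -0.58 to 0.14 for Wee1. Per1, Bhlhe40, Ciart and Hlf kept their sign without each array, at 0.10 to 0.78, -0.38 to -0.20, 0.17 to 0.74 and -0.31 to -0.09. The median of the 9 genes ran from -0.21 to 0.16. The substrain difference of the phase readout ran from -0.15 to 0.01 when a gene was left out, and was 0.01 with a repeated quantile normalization. It was 0.16 when each gene was divided by its SD, a scale on which the values within Balb/cBy spanned 3.92. In all of these scalings and gene choices Balb/cBy replicate 1 had the highest readout. The cause of these changes was not tested.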

Other observations

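Several output genes of the liver clock varied widely between the 6 livers. They were picked after their values were seen and carry no test. Upp2, a uridine phosphorylase, was at 9.84, 8.95 and 10.40 in Balb/c replicates 1, 2 and 3 and at 8.32, 10.15 and 10.14 in the Balb/cBy ones. Coq10b, which takes part in coenzyme Q function, was at 9.90, 9.18 and 10.26 against 8.69, 10.67 and 10.39. In both genes Balb/cBy replicate 1 was lowest and Balb/c replicate 2 next, as for Dbp. Elovl3, a fatty acid elongase, ran the other way, at 12.54, 12.51 and 11.95 in Balb/c and 12.95, 11.34 and 11.51 in Balb/cBy. Lpin1, a phosphatidate phosphatase that fasting induces, followed another order, at 10.99, 9.27 and 9.54 against 9.42, 11.45 and 10.96. Balb/c replicate 3, low in Lpin1, was high in Dbp and Nr1d1. The substrain difference was -0.19 for Upp2, 0.14 for Coq10b, -0.40 for Elovl3 and 0.68 for Lpin1. All 4 had overlapping substrains, and none passed limma's adjusted threshold (adjusted p = 0.999 for each).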
